A study of Mus musculus with 2 samples.

Results

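The cells described here were picked out of sorted mouse dermal cells by the summed level of 5 genes, Mmp3, Clec11a, Ppp1r14a, Aldh3a1 and Cpz. A barcode (the sequence tag of 1 droplet, read as 1 cell) was a member when it had 200 to 5000 detected genes, at most 10% of its unique molecular identifiers (UMIs, counted transcripts) from mitochondrial genes, and a raw count of at least 3 summed over the 5 genes. Of 2344 barcodes within the first limits, out of 6462 in the files, 508 were members. The untreated (UT) library gave 271 members of 1301 barcodes, a share of 20.8% (95% Clopper-Pearson interval 18.7 to 23.1), and the imiquimod (IMQ) library gave 237 of 1043, 22.7% (20.2 to 25.4). The 5 genes had been proposed as markers of reticular-type fibroblasts, the cells of the deeper dermis, and the members were chosen by the values of these genes, so those values are a description and were not tested.

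Both libraries came from the dermis of C57BL/6 mice of 8 weeks, genotype PdgfraDreER-tdTomato. In these mice, in both conditions, the Pdgfra promoter drives a tamoxifen-dependent Dre recombinase that switches on red fluorescence, so that only Pdgfra-expressing cells at the time of tamoxifen, and their progeny, could be sorted. The epidermis had been taken off with Dispase II overnight in the cold, and live CD45-negative, tdTomato-positive cells were sorted from UT skin or from skin treated for 7 days with IMQ, a Toll-like receptor agonist that induces psoriasis-like inflammation. Each condition was 1 library, and the labels do not say how many mice went into it, so treatment and library, and any difference between mice, cannot be told apart and no comparison carries a p-value.

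Fibroblasts build and remodel the collagen matrix of the dermis, and those of the upper (papillary) and lower (reticular) layers differ in the genes they express. Mmp3 encodes stromelysin-1, a secreted metalloproteinase that cleaves matrix proteins. Clec11a encodes osteolectin, a secreted growth factor best known for promoting bone formation. Ppp1r14a encodes CPI-17, an inhibitor of myosin phosphatase, Aldh3a1 an aldehyde dehydrogenase, and Cpz carboxypeptidase Z, a secreted enzyme with a Wnt-binding domain. In GENCODE M21 (GRCm38), Mmp3 lies on chromosome 9, 7445822 to 7455975, Clec11a on chromosome 7, 44302687 to 44306902, Ppp1r14a on chromosome 7, 29289308 to 29293801, Aldh3a1 on chromosome 11, 61207537 to 61218421, and Cpz on chromosome 5, 35502218 to 35525698. All 5 are protein-coding and none overlaps another annotated gene.

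The 5 genes were sparse even in the members. In UT members the UMIs were 246 for Mmp3, 180 for Clec11a, 268 for Ppp1r14a, 236 for Aldh3a1 and 356 for Cpz, and the share of members with at least 1 UMI ran from 41.3% for Mmp3 to 61.6% for Cpz. In IMQ members the UMIs were 216, 131, 28, 117 and 494 in the same order, and the shares ran from 11.0% for Ppp1r14a to 87.8% for Cpz. Cpz thus made up 27.7% of the rule's UMIs in UT members and 50.1% in IMQ members, and Ppp1r14a stood at 712 CPM (counts per 1000000 UMIs) in UT members and 112 in IMQ members. UMIs of both Mmp3 and Clec11a were found in 44 of 271 UT members and 47 of 237 IMQ members, and all 5 genes together in 4 and 1. Most members carried 2 or 3 of the 5, 119 and 91 in UT and 100 and 81 in IMQ, while 27 UT and 42 IMQ members carried 1 alone. The commonest pair was Clec11a with Cpz in UT, in 29.5% of members, and Mmp3 with Cpz in IMQ, in 45.6%, whereas Ppp1r14a with Aldh3a1 was in 27.3% of UT and 4.64% of IMQ members. The summed count was exactly 3 in 100 UT and 106 IMQ members, just inside the limit, and exactly 2 in 180 and 190 barcodes just outside it. Its median was 4 in both libraries and its highest value 22 in UT and 12 in IMQ.

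A limit on a raw count picks deeper barcodes. The median depth was 1132 UMIs in UT members against 651.5 in the other UT barcodes, and 982 against 642 in IMQ. When every barcode was thinned to 400 UMIs, the share of members was 5.23% in UT (4.04 to 6.64) and 6.65% in IMQ (5.18 to 8.38), with 96 and 50 shallower barcodes left out. Each member was therefore set beside the 2 other barcodes of its library nearest in depth, within 10%. This kept 231 of 271 UT members with 462 matched others (median 1035 against 982.5 UMIs) and 187 of 237 IMQ members with 374 (842 against 826). CPM of other genes were taken over totals without the 5 genes. Intervals are 95% and cover counting error only, and log2 ratios were taken with 20 CPM added to each side, while intervals are of the ratio without the addition, so the ratio of a gene with few UMIs can lie outside its interval. The depth before any limit was 1524079 UMIs over 1415 barcodes in UT and 2358303 over 5047 in IMQ, and even this number of IMQ barcodes lies below the study's own count of IMQ cells after filtering. The libraries shared 1 barcode sequence and no member's.

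Each of the 5 genes was also measured in barcodes chosen by the other 4, so that its own level was not used in the choice, with CPM over all UMIs and ratios with nothing added. The 5 genes had been chosen together with earlier results of these data known. These ratios therefore describe the set and cannot test it. In UT all 5 were higher in the chosen barcodes than in their matched others: Mmp3 429.5 against 181 CPM, Clec11a 379 against 161, Cpz 694 against 360, Aldh3a1 412 against 249 and Ppp1r14a 417 against 272. The log2 ratios ran from 0.62 (0.23 to 1.00) for Ppp1r14a to 1.25 (0.82 to 1.68) for Mmp3. In IMQ only Mmp3, 594 against 370 CPM, and Clec11a, 427 against 225, had intervals above 0, with log2 ratios of 0.68 (0.27 to 1.09) and 0.92 (0.43 to 1.42). Cpz was at 1228 CPM in the chosen IMQ barcodes and 1145 in the others, a log2 ratio of 0.10 (-0.26 to 0.46), and Aldh3a1 was at 245 and 282, a ratio of -0.20 (-0.77 to 0.34). Ppp1r14a rested on 14 and 17 UMIs there, and its interval was -0.49 to 1.75.

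**Figure D1:**
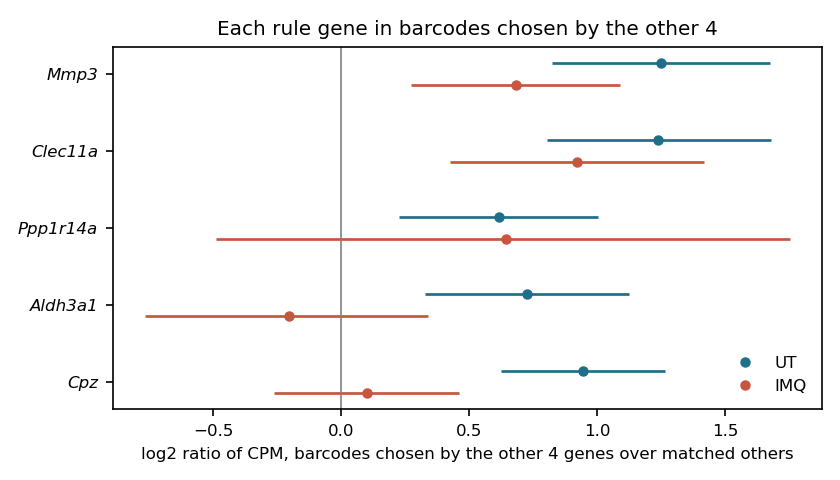
Log2 ratio of the CPM of each rule gene in barcodes chosen by the other 4 genes over that in matched others; points are ratios and lines 95% counting intervals, UT in blue and IMQ in red. All 5 UT intervals lie above 0, while in IMQ those of Mmp3 and Clec11a do and those of Ppp1r14a, Aldh3a1 and Cpz cross it.

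The members were fibroblasts by most of their general markers. Of 10 compared in both libraries 8 were higher than in matched others in both and 1 lower, beside 25.3% and 29.9% of all genes. UMIs of Col1a1, Col1a2, Col3a1, Dcn, Lum and Sparc summed to 10 or more in 270 of 271 UT members and in 237 of 237 IMQ members, against 922 of 1030 and 763 of 806 other barcodes. Those other barcodes were shallower and not matched in depth. These 6 genes made up between 1.20% and 48.2% of a UT member's UMIs, with a median of 14.0%, and between 0.419% and 50.6% in IMQ, with a median of 19.9%. Among the matched others the medians were 8.74% and 14.8%. The members thus held more of these transcripts in the middle of the range, while single barcodes of both sets overlapped widely. Barcodes rich in MHC class II transcripts, a sign of immune cells, numbered 0 among the members, 3 among the other UT barcodes and 4 among the other IMQ barcodes, which is too few to measure how often free RNA alone gives a UMI of a fibroblast gene. Ptprc, which encodes CD45, was seen in 0 of 271 UT members, which allows a share of barcodes with a UMI of up to 1.35%, and 0 of 237 IMQ members, up to 1.54%. It was seen in only 1 of the 3 UT and 0 of the 4 IMQ class II barcodes, so these limits do not bound the share of CD45-expressing cells. Pdgfra, the gene whose promoter labels the sorted cells, had a UMI in only 6 UT and 4 IMQ members. Among matched barcodes it was seen in 2 of 231 UT members against 29 of 462 others, and in 1 of 187 against 8 of 374 in IMQ. Endothelial markers summed to 2 UMIs in matched UT members and 1 in IMQ, markers of T cells and mast cells to 1 and 1, skeletal muscle markers to 1 and 0, and keratinocyte markers to 30 and 2. In the matched others these sums were 1 and 25, 30 and 0, 5 and 1, and 40 and 5. The UT keratinocyte sum was thus 107 CPM in members and 74.2 in others, a log2 ratio of 0.53 (-0.20 to 1.25). Krt10 was the only gene of that list with enough UMIs to compare.

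Markers of the reticular layer did not go with the label. Of a list of 10, 3 could be compared in both libraries, of which 1 was higher and 2 were lower in the members of both, beside 25.3% higher and 29.9% lower among all 3059 genes compared in both. The median log2 ratio of the list was -0.37 over 5 genes in UT and -0.65 over 4 in IMQ, where the medians over all genes were -0.08 and -0.04. Summed over the list the members held 1456 CPM against 2599.7 in UT, a log2 ratio of -0.84 (-0.999 to -0.676), and 1214 against 1671 in IMQ, -0.46 (-0.70 to -0.23). Gpx3, a secreted glutathione peroxidase, was at 716 CPM in UT members and 1644 in matched others, and at 1031 and 1230.5 in IMQ. Cilp, a matrix protein, was at 676 and 879.6 in UT and at 106 and 242 in IMQ. The gene that was higher in both was Fmo1, a flavin monooxygenase, on 7 UMIs in UT members and 13 in IMQ members. Dlk1, Ptgis and Mest had no UMI in any member, and Mgp had 1 UMI among the 237 IMQ members and 0 among the 271 in UT. The members are therefore named here by the 5 genes alone and not as reticular cells.

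The direction of the papillary list depended on the barcodes compared. The log2 ratios of its sum were -0.31 (-0.50 to -0.14) in UT and -0.49 (-0.92 to -0.07) in IMQ. Of its 5 genes compared in both libraries 0 were higher in both and 3 lower, beside 25.3% and 29.9% of all genes. In UT the sum was at -0.04 (-0.24 to 0.16) without Crabp1, 0.16 without barcodes of 10 or more Malat1 UMIs, 0.067 against others with 10 or more fibroblast UMIs and 0.51 with members matched on fibroblast UMIs, and in IMQ it was at 0.23 when the rule left out Cpz. Crabp1, a retinoic acid binding protein, was at 233 CPM in UT members and 521 in matched others, and had 3 against 18 UMIs in IMQ. Cyp26b1, which breaks down retinoic acid, went the other way in UT, 515 against 371 CPM, and was at 118 and 139 in IMQ. The fascial list stood at -0.06 (-0.16 to 0.05) in UT and 0.21 (0.04 to 0.39) in IMQ, with 4 of 8 genes higher in both, beside 25.3% of all genes. The IMQ value was -0.037 at a rule count of 2 or more, -0.34 at 5 or more and -0.0093 without Cpz in the rule. Its genes split: Pi16, a marker of adventitial and fascial fibroblasts, was at 454 against 965 CPM in UT and 141 against 167 in IMQ, while the surface peptidase Dpp4 was at 147 against 87.2 and 76.6 against 46.5, and the surface antigen Ly6c1 at 1145 against 1054 and 1049 against 812. In UT the dermal papilla list was lower by 1.82 on the log2 scale, on 17 UMIs in the members and 116 in the others, and in IMQ it was at -0.18 (-1.25 to 0.82). Pericyte, dermal sheath, adipocyte, Schwann cell and melanocyte lists held between 6 and 51 UMIs in the members of a library, and each of their intervals crossed 0.

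Collagen transcripts stood higher in the members of both libraries. Col1a1, which encodes one chain of type I collagen, was at 45674 CPM in UT members and 21362 in matched others, a log2 ratio of 1.10 (1.06 to 1.13), and at 63643 against 45986 in IMQ, 0.47 (0.43 to 0.50). Col1a2, the partner chain, was at 30022 against 15311 in UT, 0.97 (0.93 to 1.02), and at 44800 against 30836 in IMQ, 0.54 (0.50 to 0.58). Type III collagen, Col3a1, gave 18515 against 9226 and 28403 against 20019. The difference was thus near 2-fold in UT and smaller in IMQ, where the matched others themselves held 97944 CPM of fibrillar collagen against 46765 in UT. All 5 fibrillar collagen genes compared in both libraries were higher in the members of both, beside 25.3% of all genes. The log2 ratio of the list's sum was 1.03 in UT and 0.50 in IMQ. Col5a2, a chain of the minor collagen V, was at 776 against 538 CPM in UT and 807 against 666 in IMQ. Of 9 other collagens 5 were higher in both libraries, beside the same 25.3% of all genes. Col16a1, a fibril-associated collagen, was at 444 against 213 in UT but 100.2 against 146 in IMQ. Col15a1, of basement membrane zones, was at 390.0 against 189 and 242 against 183. Col1a1 lies on chromosome 11, 94936224 to 94953042, Col1a2 on chromosome 6, 4504814 to 4541544, and Col3a1 on chromosome 1, 45311538 to 45349706 (GRCm38), and the latter pair overlap Gm43921 and Gm47302, each on the same strand.

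Genes that fold and process collagen were also higher. Serpinh1, the collagen chaperone HSP47, was at 2347 against 1516 CPM in UT, a log2 ratio of 0.62 (0.48 to 0.78), and at 2081 against 1373 in IMQ, 0.59 (0.39 to 0.80). Rcn3, a calcium-binding protein of the endoplasmic reticulum, gave 0.57 (0.38 to 0.79) and 0.72 (0.46 to 1.02), and Fkbp7, a prolyl isomerase of the same compartment, 0.68 (0.34 to 1.12) and 0.89 (0.45 to 1.44). Adamts2, the procollagen N-proteinase, was at 1903 against 1449 CPM in UT and 1119.8 against 917 in IMQ, and Pcolce2, which enhances cleavage of the procollagen C-propeptide, at 1642 against 1106 and 1356 against 1072. Over this list 10 of 13 genes were higher in the members of both libraries, beside 25.3% of all genes. The list's median log2 ratio was 0.40 in UT and 0.22 in IMQ. Rcn3 overlaps Gm45669 on the other strand.

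Matrix-degrading enzymes other than Mmp3 were also higher. Ctsk (chromosome 3, 95499256 to 95509362), the collagenolytic protease cathepsin K, was at 6032 CPM in UT members and 4205 in matched others, 0.52 (0.43 to 0.61), and at 8747 against 5827 in IMQ, 0.58 (0.49 to 0.68). At 400 UMIs a barcode, 79.6% of UT members and 64.2% of matched others had a Ctsk UMI, and 91.3% and 79.1% in IMQ. Of 12 metalloproteinases, relatives and inhibitors compared in both libraries 11 were higher in both, beside 25.3% of all genes. The list's median log2 ratio was 0.45 in UT and 0.34 in IMQ. Mmp2, a gelatinase, was at 1653 against 1035 and 1491 against 1246. The inhibitor Timp2 was higher in both libraries, 4118 against 3448 and 3525 against 2799, and the exception was Timp3, named after its values were seen, 204 against 291 in UT and 177 against 127 in IMQ. Htra1, a secreted serine protease, gave 0.60 (0.45 to 0.77) and 0.59 (0.35 to 0.85). Htra1 overlaps Fgfr2 and Timp3 overlaps Syn3, each on the other strand, and the sources do not say if strand entered the counting.

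A further 4 genes completed the 12 ranked highest in both libraries. Pdgfrl, a platelet-derived growth factor receptor-like protein, was at 401 against 180.0 CPM in UT, 1.07 (0.75 to 1.56), and at 949 against 558 in IMQ, 0.75 (0.45 to 1.08), and it was seen in 74 of 231 UT members against 69 of 462 others. Mrc2, a collagen uptake receptor, rested on 32 and 27 UMIs in the members, with log2 ratios of 0.90 (0.36 to 1.93) and 1.02 (0.36 to 2.10). The heparan sulfate proteoglycan Gpc4 had 61 and 13 UMIs and ratios of 0.80 (0.37 to 1.43) and 1.21 (0.39 to 3.39), but in IMQ it was at -0.67 at a rule count of 5 or more and -0.13 without Cpz in the rule, and in UT at -0.27 with members matched on fibroblast UMIs. Lum, a collagen-binding proteoglycan, was at 5843 against 3412 and 5511 against 3967 CPM. Of the general fibroblast list 8 of 10 genes were higher in both libraries, beside 25.3% of all genes. In that list 1 was lower in both, beside 29.9% of all genes: Vim, named after its values were seen. Vim, the intermediate filament of mesenchymal cells, was at 2537 against 3231 and 2894 against 3359.7 CPM, and Pdgfra had a UMI in 2 of 231 matched UT members against 29 of 462 others and in 1 of 187 against 8 of 374 in IMQ.

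**Figure D2:**
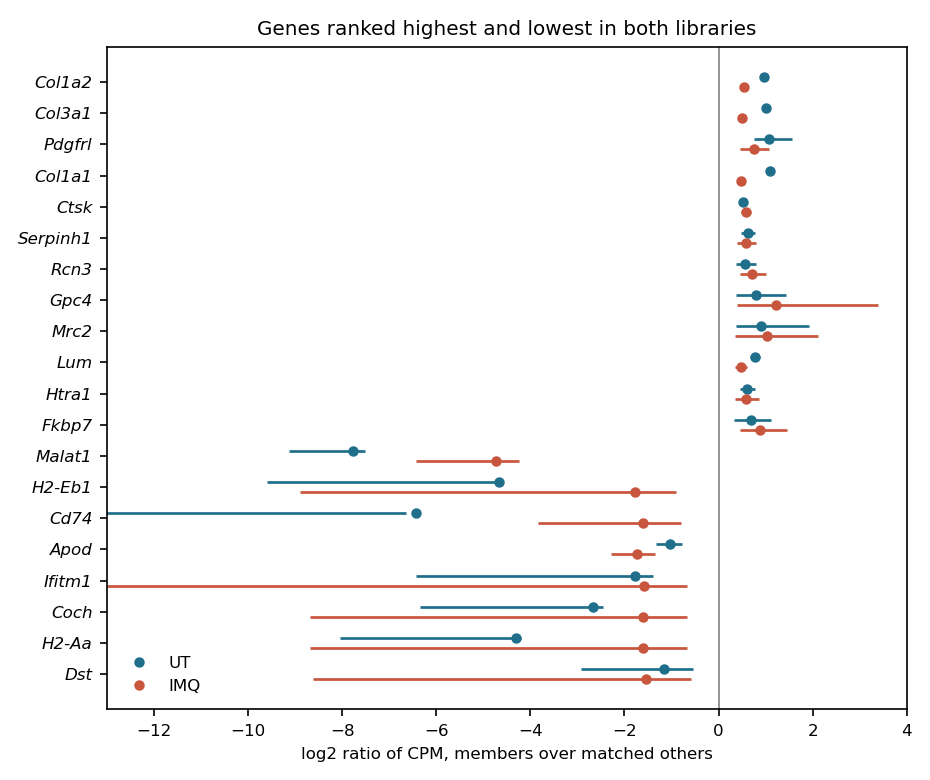
Log2 ratio of CPM in members over matched others, with 20 CPM added, for the 12 genes ranked highest and the 8 ranked lowest in both libraries; points are ratios, lines 95% counting intervals of the ratio without the addition, UT blue and IMQ red, and a line that reaches the left edge goes on beyond it. Col1a2, Col3a1 and Col1a1 sit near 1 in UT and near 0.5 in IMQ with short intervals, and the long intervals on the left belong to genes with few UMIs in the members.

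The differences above were computed again under other choices, and the values under 2 of them are given here. When the rule was applied without Cpz, the log2 ratio of Col1a1 was 0.73 in UT and 0.01 in IMQ, and those of Col1a2 were 0.57 and 0.06, so that in IMQ they stood near 0. When each member was matched on the UMIs of the 6 fibroblast genes in place of all UMIs, a matching chosen after these data were seen, Ctsk was at 0.01 in UT and 0.32 in IMQ, Serpinh1 at -0.10 and 0.33, and Rcn3 at 0.04 and 0.42. Pdgfrl was at 0.52 and 0.41, Apod -1.27 and -1.36, and the reticular list -1.13 and -0.52.

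With 20 CPM added, 0 of 3059 genes compared (0%) were 2-fold or more higher in the members of both libraries, and with 5 CPM added 6 were. Mrc2 with nothing added was at 114 against 52.0 CPM in UT and 159 against 68.2 in IMQ. With 20 CPM added, 14 (0.458%) were 2-fold or more lower in both. Within UT 44 of 6052 genes were 2-fold or more higher (0.727%) and 238 lower (3.93%), and within IMQ 52 of 3123 were higher (1.67%) and 113 lower (3.62%). Across the 3059 genes the log2 ratios of the libraries had a Pearson r of 0.18 and the same sign for 55.1%, a description across genes that are not independent.

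Of the 8 genes ranked lowest in both libraries, several were carried by a few of the other barcodes. Malat1, a nuclear long non-coding RNA, had 14 UMIs in 231 UT members and 8312 in 462 matched others, of which 8283 lay in 22 barcodes, and 8 in IMQ members against 569, of which 564 lay in 2. The members held such barcodes as well, 2 in UT with 1567 UMIs and 2 in IMQ with 792, which the depth matching had left out. Over all members Malat1 had 1583 UMIs in UT against 14828 in the 1030 other barcodes, and 803 in IMQ against 2249 in 806, and without Malat1-rich barcodes its log2 ratio in IMQ was 0.92. The class II genes Cd74, H2-Aa and H2-Eb1 had 1, 3 and 2 UMIs in UT members against 1080, 316 and 362 in the others, where they were seen in 7 barcodes each, with intervals of the log2 ratio of -14.43 to -6.65, -8.06 to -4.21 and -9.60 to -4.69. Matched on fibroblast UMIs, Cd74 was at 0.55 and H2-Aa at 0.30 in UT, and in IMQ Cd74, H2-Aa and H2-Eb1 were at 0.049, 0.37 and 0.66. Over the list of myeloid and class II markers the members held 26 UMIs in UT and 22 in IMQ against 2341 and 141, and the part of such barcodes in the other ratios was not tested. Apod (chromosome 16, 31296192 to 31314808), which encodes the lipid carrier apolipoprotein D, was spread more widely: it was at 515 against 1067 CPM in UT, -1.02 (-1.32 to -0.78), and at 259 against 905 in IMQ, -1.73 (-2.29 to -1.34), with UMIs in 75 of 231 members and 166 of 462 others in UT, although 1 other barcode held 87 of the 575 UMIs in UT and 1 held 153 of the 292 in IMQ. Dst, a cytoskeletal linker, was seen in 6 members and 38 others in UT and in 1 and 14 in IMQ, and in UT it was at 0.13 at a rule count of 2 or more. Ifitm1 had 2 against 39 UMIs in UT (-6.43 to -1.39) and 0 against 13 in IMQ, at least 2.28-fold lower in the latter when 0 is set at 3 counts, and Coch, a secreted matrix protein, had 3 against 95 (-6.34 to -2.45) and 1 against 19 (-8.70 to -0.67). The UT direction of Coch turned with the barcodes compared, with a log2 ratio of 0.43 for all members against all others and 1.64 matched on fibroblast UMIs. All UT members held 68 Coch UMIs, 39 of them in 1, and 38 of the 95 in the matched others lay in 1.

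The levels were followed over the summed count of the 5 genes, from barcodes with none of them to members with 6 or more UMIs. Col1a1 stood at 11170 CPM in the 541 UT barcodes at 0, 30242 in the 180 at 2, 39806 in the 100 at 3 and 53058 in the 58 at 6 or more. In IMQ it stood at 28979.5, 53888, 53220 and 70418. In UT the difference between 2 and 3 was no larger than that between 0 and 1, where Col1a1 went from 11170 to 22854, and in IMQ the barcodes at 2 and 3 stood alike, so the limit of 3 cut through a graded scale. Ctsk went from 2984 to 6042 CPM in UT, while in IMQ it was highest at a count of 3, 8620.4, and lower at 6 or more, 7065. Apod stood at 1331 CPM at 0 and 463 at 1 in UT, and at 1258 and 439 in IMQ, and Pi16 in UT was highest at 2, 969, just outside the limit. Of the 297 Apod UMIs at 0 in IMQ, 153 lay in 1 barcode. The median depth climbed along the same scale, from 608 to 1670 UMIs in UT and from 608 to 1185 in IMQ, and its part in these levels was not tested here.

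**Figure D3:**
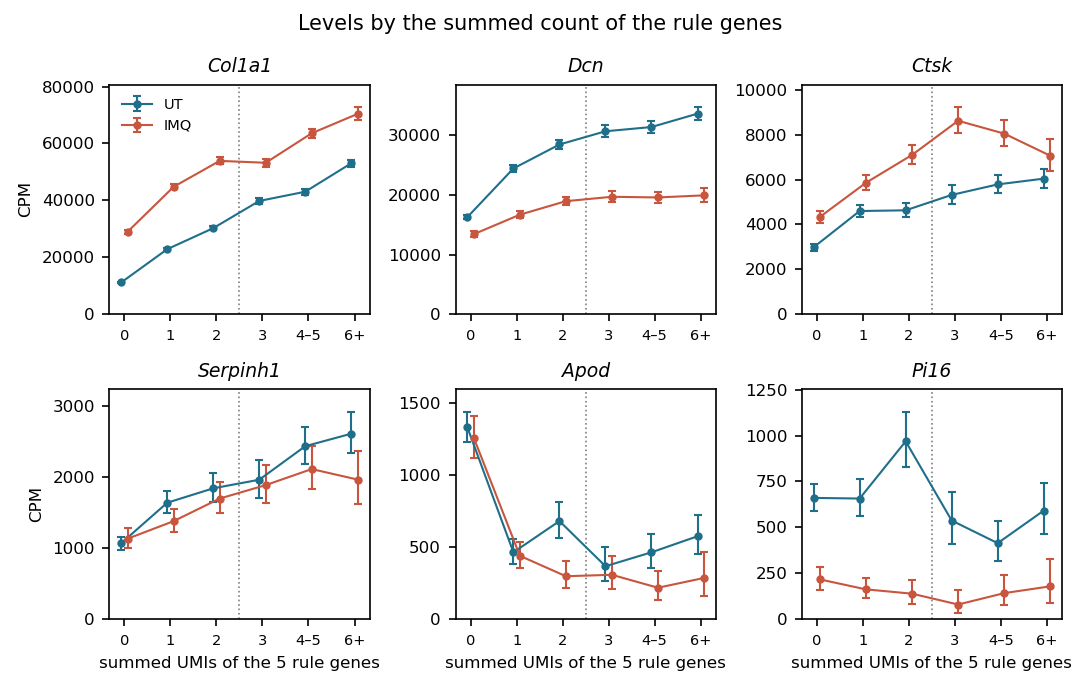
CPM of 6 genes against the summed UMIs of the 5 rule genes in a barcode, UT blue and IMQ red, with 95% Poisson intervals; the dotted line marks the limit, members to its right. Col1a1, Dcn and Serpinh1 climb from 0 on in UT on both sides of the limit, and Apod is highest at 0 in both libraries. In IMQ 153 of the 297 Apod UMIs at 0 lay in 1 barcode.

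The families of the 5 genes were looked at next. Carboxypeptidases other than Cpz were higher in the members of both libraries for 5 of 8 genes, beside 25.3% of all genes. Aebp1, a collagen-binding protein of that family, was at 8415 against 4682 CPM in UT, 0.84 (0.76 to 0.93), and at 4055 against 2985 in IMQ, 0.44 (0.30 to 0.58), and Cpxm1 at 655 against 356 and 407 against 309.9. Of the Wnt ligands, receptors and modulators, among which Cpz acts, 2 of 6 compared in both were higher in both, beside 25.3% of all genes. The list's sum was at -0.26 (-0.77 to 0.23) in IMQ, and in UT it was lower by 1.05 on the log2 scale, where the antagonists with the most UMIs in the others, named after their values were seen, were Dkk2, 6 against 170 UMIs, and Sfrp1, 6 against 85. Rspo1, which amplifies Wnt signalling, was at 189.6 against 121 CPM in UT and 64.8 against 93.0 in IMQ. For osteolectin, 0 of 5 genes of its receptor and of bone formation were higher in both libraries and 3 were lower, beside 25.3% and 29.9% of all genes. Lepr, which marks osteolectin-producing cells of bone marrow, had 3 against 24 UMIs in UT and 2 against 10 in IMQ. The receptor subunit Itgb1 was at 347 against 278 CPM in UT and 129.7 against 183 in IMQ.

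Genes of contraction, the process CPI-17 regulates, were lower as a sum, with log2 ratios of -0.25 in UT and -0.21 in IMQ. The list's median was -0.16 in UT and -0.11 in IMQ, against -0.08 and -0.04 over all genes. Of 15 compared in both libraries 3 were higher in both and 7 lower, and 1 had intervals below 0 in both. Over all genes 25.3% were higher in both and 29.9% lower, shares that stand beside every count in this paragraph. Actb was at 4576 against 5572 CPM and 472 against 657, and Myl6, a myosin light chain, at 1045 against 1284 and 430.3 against 471. Aldehyde, retinoid and alcohol metabolism, the field of Aldh3a1, showed 4 of 11 genes higher in both and 3 lower, Aldh2 at 440.1 against 384 and 248 against 285. The class I gene H2-D1 was at 2018 against 1575 and 1668 against 1345 CPM and the interferon-induced Ifitm2 at 1449 against 1618 and 601 against 936, in a list of which 3 of 9 were higher in both and 4 lower. Genes of the insulin-like growth factor list were higher in both for 5 of 8 and lower for 2, the binding protein Igfbp5 at 2969.6 against 2436 and 1096 against 986. Small leucine-rich proteoglycans were higher in both for 4 of 9, elastic fibre genes for 7 of 13, complement genes for 4 of 10 and antioxidant genes for 4 of 19, beside 25.3% of all genes. Matched on fibroblast UMIs, the sum of the elastic fibre list was at -0.26 in UT and -0.053 in IMQ and that of the complement list at -0.33 in UT. Among them the collagen-binding Dcn was at 33224 against 23963 and 20870.5 against 17062 CPM, the complement inhibitor Serping1 at 2379 against 1887 and 1538 against 1296, and the peroxiredoxin Prdx6 at 590.3 against 389.7 and 566 against 437.

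**Figure D4:**
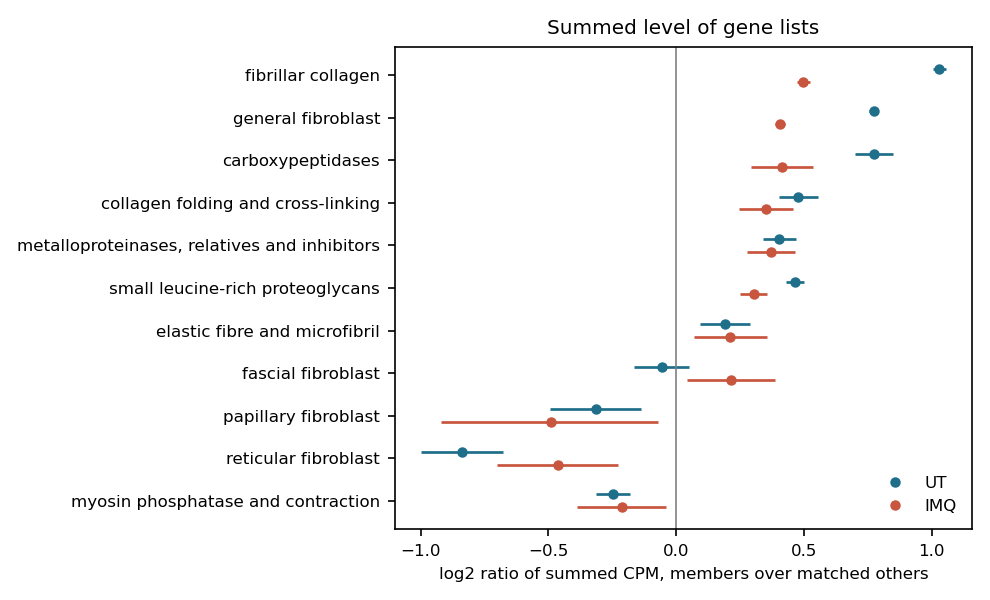
Log2 ratio of the summed CPM of gene lists in members over matched others, with 95% counting intervals, UT blue and IMQ red. Fibrillar collagen stands highest, near 1 in UT and 0.5 in IMQ, and the reticular, papillary and contraction lists lie below 0 in both libraries, although the papillary sum was at -0.04 in UT without Crabp1, 0.16 in UT without Malat1-rich barcodes and 0.23 in IMQ without Cpz in the rule. Without Cpz in the rule the ratios of Col1a1 and Col1a2 in IMQ also stood near 0.

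Immediate early genes, which dissociation of tissue can switch on, stood on opposite sides in the libraries, a difference that was not tested. In UT all 17 of the list were lower in the members, 12 of them 2-fold or more, beside 3.93% of all genes in UT. The median log2 ratio was -1.72 in UT, while in IMQ the median over 13 genes was 0.25. Fos, a subunit of the AP-1 transcription factor, had 25 against 365 UMIs in UT, of which 207 lay in 1 barcode, and 19 against 29 in IMQ. Jund, another AP-1 subunit, was at 902 against 1126 CPM in UT and 448 against 409 in IMQ. The same UT others held the Malat1-rich barcodes, and their part in the values of this list was not tested. Without barcodes of 10 or more Malat1 UMIs the count of all genes 2-fold or more lower in both libraries went from 14 to 9. Of the 13 immediate early genes compared in both libraries 0 were among the 14, beside 0.458% of all genes, so that count does not describe the list. The sum of inflammatory and wound genes was lower in UT by 1.26 and at 0.04 in IMQ, with Tnfaip6, a hyaluronan-binding protein, at 9 against 98 UMIs in UT. The list's median in IMQ was -0.35 over 7 genes. Of 6 compared in both libraries 4 were lower in both and 2 higher, beside 29.9% and 25.3% of all genes. Chemokine and cytokine genes stood at -0.09 and -0.40, with Ccl8 at 11 against 47 UMIs in IMQ. All 3 proliferation genes that could be compared were lower in both libraries, beside 29.9% of all genes. Among them was the tubulin Tubb5 at 236 against 271 and 76.6 against 158 CPM. Ribosomal protein genes made up 16.9% of matched UT members' UMIs against 21.4% in matched others and 16.3% against 20.9% in IMQ. With totals that left out UMIs of ribosomal protein and mitochondrial genes, Gm42418 and AY036118, 12 of 88 values of named genes and lists moved by more than their counting interval and 0 changed sign. The share of Gm42418, a sign of ribosomal RNA, was 1.48% in UT members and 14.6% in IMQ members.

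Genes ranked within 1 library alone rested mostly on few UMIs in the members. In UT the members had 9 UMIs of Asrgl1 against 1, a log2 ratio of 1.26 (1.27 to 9.57), 11 of Mgmt against 2, 1.32 (1.21 to 6.62), 10 of Rnase10 against 2, 1.23 (1.04 to 6.50), and 9 of Cog4 against 2, 1.14 (0.84 to 6.37), with Aebp1 above as the abundant exception. Lower in UT were H2-Ab1 with 0 against 350 UMIs (at least 60.5-fold), Prlr with 0 against 134 (at least 23.2-fold), Slc26a7 with 0 against 81 (at least 14.0-fold), Igfbp3 with 6 against 759 (log2 ratio 0.11 without Malat1-rich barcodes) and Hspa1b with 3 against 214, -3.76 (-7.50 to -3.64), 133 of which lay in 1 barcode. Prlr and Slc26a7 were each seen in 15 of 462 other barcodes. In IMQ the members had 13 UMIs of Tmem106b against 3, 1.72 (1.18 to 5.49), 9 of Epb41 against 1, 1.66 (1.25 to 9.55), and 10 each of Camkk2 and Spin1 against 2, 1.59 (1.02 to 6.48), while all 13 of Cxcl9 lay in 1 member. Lower in IMQ were Ccl21a, 1 against 103, -3.71 (-11.08 to -3.25), with 96 in 1 barcode, Mgp, 0 against 39 (at least 6.84-fold), Stk16, 0 against 19 (at least 3.33-fold), and Hist1h2ap and Washc3, each 0 against 18 (at least 3.16-fold). At a rule count of 5 or more Asrgl1 in UT was at -0.39, Spin1 in IMQ at -0.76 and Cxcl9 in IMQ at -1.22, and Ccl21a in IMQ was at 0.28 with a mitochondrial maximum of 5%. Stk16 overlaps Tuba4a, a tubulin gene on the other strand.

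The members were also compared among themselves by which rule gene they carried. Each gene's carriers were set beside the members without it, leaving out Malat1-rich barcodes, and up to 4 genes were ranked in each direction by the interval bound nearest 0 in both libraries, a description with no test. The genes given here were picked from those after their values were seen. Carriers and the rest were not matched in depth. In UT their median UMIs were 1199 and 994 for Cpz, 1278 and 997.5 for Clec11a, and 1131 and 1141 for Mmp3. Members without a gene had reached the count of 3 through the other 4. The 165 UT members with Cpz held 52654 CPM of Col1a1 against 30348 in the other 104, and the 206 in IMQ held 66441 against 45824 in the other 29. Mmp3 carriers held 219 UMIs of Igfbp2, an insulin-like growth factor binding protein, against 50 in UT, with UMIs in 33 of 111 barcodes against 7 of 158, and 10 against 0 in IMQ. They also held less Cyp26b1 in both libraries, 366 against 643 CPM and 54.2 against 164, and no Myoc against 18 and 16 UMIs, which lay in 2 UT and 3 IMQ members, 9 and 10 of them in 1. Aldh3a1 carriers were lower in Gpx3, 422 against 1012 and 602 against 1215 CPM, and in Ctla2a, 235 against 442 and 1142 against 3318, and higher in Cyp2f2, a cytochrome P450, 828 against 553 and 1155 against 803. The genes ranked above Cyp2f2 were Nfkbia, an inhibitor of NF-kappaB, and the immediate early genes Dusp1 and Junb. Junb was at 160.2 against 40.7 CPM in UT and 238 against 84.9 in IMQ for Aldh3a1, with 19 of its 30 UT and 13 of its 19 IMQ UMIs in 1 carrier each. It was among the genes ranked lower in carriers of Mmp3 and of Cpz, where the most UMIs in 1 member without the gene were again 19 and 13. Ppp1r14a carriers were lower in Apoe, the lipid transport protein, 1014 against 1793 and 638 against 1305, on 26 carriers in IMQ. For Clec11a carriers the gene ranked first was Sparc, a collagen-binding glycoprotein, at 29421 against 24674 and 54654 against 49972.

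The members of the IMQ library were last compared with those of the UT library, all 237 against all 271. Of 4633 genes compared, 83 were 2-fold or more higher in IMQ (1.79%) and 795 lower (17.2%), with the median gene at -0.45 on the log2 scale. Relative to that gene 233 were higher (5.03%) and 231 lower (4.99%). In the matched others the median gene was at -0.48, and of 5899 genes 53 were 2-fold or more higher (0.898%) and 984 lower (16.7%), or 219 (3.71%) and 228 (3.87%) relative to the median gene, so the lower median was seen in both sets. The Gm42418 share differed between the libraries, and with totals that left out UMIs of Gm42418, AY036118, mitochondrial and ribosomal protein genes 174 genes were 2-fold or more higher and 638 lower. The Cell Ranger version also differed, and its part was not tested.

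Cthrc1 (chromosome 15, 39076932 to 39087121), a secreted protein of collagen-producing cells in injured tissue, ranked first of the genes above the median, at 329.6 CPM in IMQ members and 7.99 in UT members, from 82 and 3 UMIs in 44 and 2 barcodes. In the matched others it was at 179.8 and 5.57 CPM, so it was higher in IMQ in both sets, and within IMQ it was higher in members than in matched others by 0.73 (0.23 to 1.36) on the log2 scale. Ctla2a, a cysteine protease inhibitor, was at 2408 against 325 CPM in members and 2368 against 694 in the others. Its level in members was below that of the others in UT and above it in IMQ. Wfdc12, a secreted antiprotease, had 39 against 5 UMIs in members and 28 against 6 in the others, and within IMQ it was at 189 against 86.8 CPM. Lars2, a mitochondrial tRNA synthetase, was higher by 2.56 in members and 2.96 in others. The list of genes of cell-free RNA and library quality had medians at these same values, over 5 genes. Lars2 was itself the middle gene of that list, so the medians are no separate measure. The Gm42418 share was 1.48% in UT and 14.6% in IMQ members, and the part of library quality in the Lars2 ratio was not tested. Ctla2a overlaps Gm49391 and Gm49393 on the same strand, and Wfdc12 overlaps A730032A03Rik on the other. Of 54 Ier3 UMIs 44, of 42 Neat1 UMIs 34 and of 15 Cxcl9 UMIs 13 came from 1 IMQ member each, and without Malat1-rich barcodes the log2 ratio of Neat1 was -0.074. Igfbp3 had 56 UMIs in 24 IMQ members, 25 of them in 1, and 10 in 6 UT members. In the matched others the UMIs in IMQ and UT were 9 and 64 for Ier3, 5 and 34 for Neat1, 69 and 759 for Igfbp3 and 4 and 2 for Cxcl9. The depth-matched members held 9 and 2, 1 and 2, 24 and 6, and 13 and 0 in the same order.

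Among the genes furthest below the median, Igfbp2 went from 269 UMIs in UT members to 10 in IMQ members, a log2 ratio of -3.61 against -1.63 in the others. Of the 51 Igfbp2 UMIs in the IMQ others 26 lay in 1 barcode, so the distance between the sets leans on that barcode. Klk1b21, a kallikrein, went from 81 to 0 (at least 17.9-fold), Spon2, a secreted matrix protein, from 58 to 0 (at least 12.8-fold) and Tmem100, a membrane protein, from 51 to 0 (at least 11.3-fold). The matched others were lower in IMQ for these genes too, with 100 UMIs in UT and 1 in IMQ for Klk1b21, 52 and 3 for Spon2, and 65 and 6 for Tmem100. Crabp1 was lower by similar amounts in both sets, with log2 ratios of -3.25 and -2.84, as were Actb at -2.92 and -3.05, Plac9b at -2.96 and -2.78 and Gm9780 at -3.25 and -2.94. Plac9b overlaps Cphx3 on the other strand.

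Over the lists, fibrillar collagen was higher in IMQ members by 0.48 and in matched others by 1.07, so that the distance between members and others was smaller in IMQ. Col1a1 was at 60928 CPM in IMQ and 45377 in UT members, with 45986 and 21362 in the others, and Sparc at 49396 and 26505, with 43965 and 18509.6. Carboxypeptidases were lower by 0.93 in members and 0.53 in others, with Aebp1 at 3774 against 8075 CPM in members and 2985 against 4682 in others. Papillary genes were lower by 1.67 and 1.57, with Cyp26b1 at 157 against 535 CPM in members and 139 against 371 in others, and contraction genes by 1.80 and 2.04. Igfbp6 was at 872 against 2320.4 CPM in members and 871 against 1870.5 in others. Fbn1, the microfibril protein fibrillin-1, was at 105 against 637 in members and 124 against 484 in others, with elastic fibre genes lower by 0.55 and 0.37. Immediate early genes stood at 0.50 in members and -2.25 in matched others. The first value turned with the members used: over all members the list held 3541 CPM in IMQ and 2512 in UT, and over the depth-matched members 1397 and 1603. Malat1-rich barcodes were 2 of all members in each library, none of the matched members, and 2 of the IMQ and 22 of the UT matched others, and their part in these sums was not tested. Differences between the sets were not tested.

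**Figure D5:**
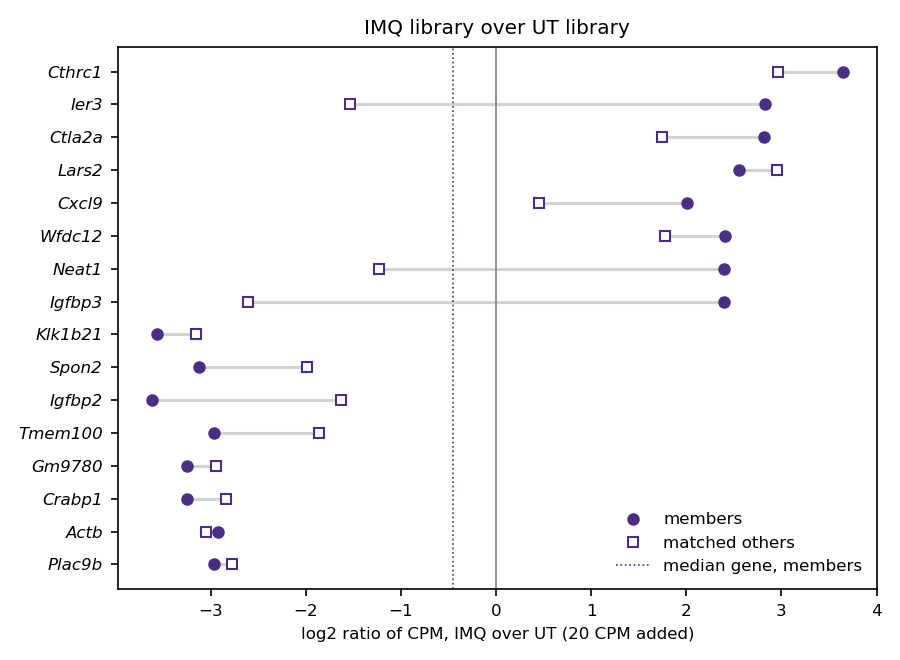
Log2 ratio of CPM in the IMQ over the UT library, with 20 CPM added, for the 16 genes ranked furthest from the median gene of the members by their interval bound; filled circles are members, open squares matched others, and the dotted line is the median gene of the members at -0.45. Members and matched others lie close for Lars2, Actb, Plac9b and Gm9780 and on opposite sides of 0 for Ier3, Neat1 and Igfbp3, of whose IMQ member UMIs 44 of 54, 34 of 42 and 25 of 56 came from 1 barcode. Circles are all members, while squares are others matched in depth to part of them. The depth-matched IMQ members held 9 UMIs of Ier3, 1 of Neat1 and 24 of Igfbp3.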

How the data were processed

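Live CD45-negative tdTomato-positive dermal cells were profiled in 1 UT and 1 IMQ library with the 10x Genomics 3′ v3 kit. The deposited raw UMI counts per gene and barcode were made by the authors with Cell Ranger against mm10, version 3.0.0 for UT and 3.1.0 for IMQ per the file headers. Whether the authors' matrices had been cleaned of empty droplets beyond Cell Ranger, and whether counting used strand, was not given in the sources used here.

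The members and all gene lists were chosen with earlier results of these data known. Barcodes within 200 to 5000 genes and at most 10% mitochondrial UMIs were kept. The study's own mitochondrial limit was 5%, run as an alternative. The submitters' notes say doublets were gated out in the sort, none were removed here, and an alternative left out the 14 UT and 9 IMQ barcodes with the highest Scrublet scores (scanpy 1.11.5), of which 8 and 4 were members. Scrublet itself called 10 and 5 barcodes. Each member was matched, deepest first and without replacement, to 2 other barcodes of its library within 10% in UMIs. UMIs were summed per set, totals left out the 5 rule genes, and genes with at least 10 UMIs over both sets were compared by log2 ratios with 20 CPM added. Intervals at 95% were exact, Poisson for sums, Clopper-Pearson for shares and conditional binomial for ratios, and cover counting error only. UMIs are not replicates, and with 1 library a condition no test across samples was possible. Genes were named by a rule: the 12 highest and 8 lowest by the interval bound nearest 0 in both libraries, 5 in each direction in each library alone, 8 in each direction for IMQ over UT members relative to the median gene, and the 4 members of a described list with the most UMIs. The 5 rule genes, mitochondrial and ribosomal protein genes, Gm42418 and AY036118 were not named. A 0 was set at 3 counts for a bound. Rule genes held out, carriers of a rule gene, matching on fibroblast UMIs, members with at least 2 different rule genes and leaving out Malat1-rich barcodes were added after the data were seen. The scripts were tested on simulated data. Python 3.11.15, numpy 2.4.6, scipy 1.17.1, pandas 2.3.3 and matplotlib 3.10.9 were used.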

Additional observations from a re-analysis of the deposited data

Results flagged for a closer look

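Barcodes that met the count of 3 over the 5 genes but fell outside the limits on genes and mitochondrial UMIs were not used in any comparison. They numbered 12 in UT and 201 in IMQ. The 12 in UT had a median of 602 UMIs and 242.5 genes, and 8 of them were over the mitochondrial limit. The 201 in IMQ had a median of 523 UMIs and 188 genes, and 128 were over the mitochondrial limit and 113 under the gene limit. Their Col1a1 level was 6464 CPM in UT and 62456 in IMQ, against 10088 and 42860 over all barcodes outside the limits. With these barcodes counted, 283 of 1415 UT barcodes (20%) and 438 of 5047 IMQ barcodes (8.68%) met the rule.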

How the results depend on the processing

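No paired analysis was possible because each condition was 1 library, and for the same reason no library could be left out. The member shares of 20.8% in UT and 22.7% in IMQ were 34.7% and 40.9% at a count of 2 or more, 7.61% and 6.42% at 5 or more, 15.0% and 7.86% without Cpz and 5.23% and 6.65% thinned to 400 UMIs, and the IMQ share was 18.7% with at least 2 different rule genes. Of genes 2-fold higher in both libraries there were 0, and 1 each at a count of 5 or more, a 5% mitochondrial maximum, 1 matched barcode a member, totals that left out UMIs of mitochondrial and ribosomal protein genes, Gm42418 and AY036118, without Cpz and without doublets, and 6 with 5 CPM added. Of genes 2-fold lower there were 14, and 23 at a count of 5 or more, 9 at a 5% mitochondrial maximum, 5 against others with 10 or more fibroblast UMIs, 28 with the reduced totals, 8 without Cpz, 34 with 5 CPM added, 3 at 30 UMIs or more, 9 without Malat1-rich barcodes and 3 matched on fibroblast UMIs. For IMQ over UT members, the 83 higher and 795 lower genes were 159 and 1509 with 5 CPM added, 42 and 479 at 30 UMIs or more, 233 and 231 relative to the median gene, and 174 higher with the reduced totals.

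Of the log2 ratios of named genes and lists, 908 values under the alternatives moved by less than the counting interval, 312 moved by more and 37 changed sign. The 908 include 88 values at a minimum of 5 UMIs and 88 at 30, settings that choose genes and cannot change a ratio. Matched on fibroblast UMIs, 14 moved by less, 32 by more and 14 changed sign. Without Cpz these numbers were 40, 43 and 4. The values that changed sign at a count of 2 or more were the fascial list in IMQ (-0.037), Dst in UT (0.13) and Cxcl9 in IMQ (-1.73). At 5 or more they were the fascial list in IMQ (-0.34), Gpc4 in IMQ (-0.67), Asrgl1 in UT (-0.39), Spin1 in IMQ (-0.76) and Cxcl9 in IMQ (-1.22). Ccl21a in IMQ was 0.28 at a 5% mitochondrial maximum and Coch in UT 0.43 against all others with no matching. Against others with 10 or more fibroblast UMIs the papillary list in UT was 0.067, the complement list in UT -0.0036, Malat1 in IMQ 0.014 and H2-Aa in UT 0.28. Without Cpz the papillary list in IMQ was 0.23, the fascial list in IMQ -0.0093, Gpc4 in IMQ -0.13 and Malat1 in IMQ 1.61. Without Malat1-rich barcodes the papillary list in UT was 0.16, the complement list in UT -0.0071, Malat1 in IMQ 0.92, Igfbp3 in UT 0.11 and Neat1 in IMQ over UT members -0.074. Matched on fibroblast UMIs, the papillary list in UT was 0.51, the elastic fibre list -0.26 in UT and -0.053 in IMQ, the complement list in UT -0.33, Serpinh1 in UT -0.10, Gpc4 in UT -0.27, Malat1 in IMQ 0.83, H2-Eb1 in IMQ 0.66, Cd74 0.55 in UT and 0.049 in IMQ, Ifitm1 in IMQ 0.049, Coch in UT 1.64, and H2-Aa 0.30 in UT and 0.37 in IMQ. The cause was not tested. Genes with under 30 UMIs in the members, most of those ranked in 1 library alone among them, are limited by depth.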
